A study of Mus musculus with 11 samples.

Results

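The calcium/calmodulin-dependent kinase genes described here are the 9 genes Camk2a, Camk2b, Camk2d, Camk2g, Camk1, Camk1d, Camk4, Camkk1 and Camkk2, among 37583 counted gene identifiers. They were chosen by name from the kinase family, with the difference between genotypes in these same data already known, and the Ensembl identifiers of the count data were mapped to mouse symbols. All 9 were among the 11900 genes with enough reads to be tested. RNA sequencing was done on 11 clones, each grown from a single cell, of granulocyte-monocyte progenitors (GMP) held in an immature state by an estrogen receptor-Hoxb8 fusion. There were 6 wild-type clones (named 1A, 1B, 1C, then 2D, 2E, 2F) and 5 clones lacking Taz (3H and 3I, then 4J, 4K, 4L). Both genotypes came from C57BL/6 fetal liver of embryonic day 15.5 and carried the fusion, and both were kept in 0.5 uM estradiol with stem cell factor at about 50 ng/ml, so that no group was without the fusion or the hormone. Taz encodes tafazzin, the mitochondrial acyltransferase that remodels cardiolipin. The titles number the WT clones 1 or 2 and the KO clones 3 or 4, a number whose meaning the labels do not state.

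Calcium entering the cytosol binds calmodulin, and calcium-loaded calmodulin opens the kinase domain of every member of this family. The CaMKII enzymes (Camk2a, Camk2b, Camk2d and Camk2g) assemble into rings whose neighbouring subunits phosphorylate each other on a threonine beside the calmodulin-binding segment, after which they stay active when calcium falls. CaMKI (Camk1, Camk1d) and CaMKIV (Camk4) work in a cascade: they need phosphorylation by the CaMK kinases (Camkk1, Camkk2), and Camkk2 also activates the energy sensor AMPK. In blood-forming cells, these enzymes are known for roles in the maintenance of stem cells (Camk4), in myeloid differentiation and leukaemia (Camk2g) and in granulopoiesis and macrophage activation (Camkk2).

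The 4 CaMKII genes are related in sequence in the region that makes them calcium memory switches. Reads must be told apart between them, so the codons around the autophosphorylated threonine are shown for the 3 genes whose sequence is printed here. The stretches are 63 bases of coding strand (GENCODE M21, GRCm38), 5′ to 3′, with the threonine codon in capitals. Camk2b lies at chr11:5988967-5989029 on the minus strand, Camk2d at chr3:126797711-126797773 on the plus strand and Camk2g at chr14:20760409-20760471 on the minus strand, each within 1 coding exon.
Camk2b: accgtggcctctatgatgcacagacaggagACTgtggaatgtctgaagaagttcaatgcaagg
Camk2d: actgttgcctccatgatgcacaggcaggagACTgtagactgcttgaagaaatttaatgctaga
Camk2g: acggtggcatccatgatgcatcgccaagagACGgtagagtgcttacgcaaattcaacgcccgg
Camk2b and Camk2d shared 51 of the 63 bases, Camk2d and Camk2g 45, and Camk2b and Camk2g 43. Camk2a shared 55 with Camk2b, 50 with Camk2d and 43 with Camk2g. Over the whole coding sequences, the longest run of identical bases between any pair of the 4 genes was between 23 and 32 bases. The labels do not state the read length, and reads that match several members within a shared run cannot be told apart.

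The libraries held 19.8 to 27.4 M reads counted in genes. KO libraries were smaller on average (21.6 ± 1.90 M, SD, n = 5, against 25.0 ± 2.15 M, SD, n = 6, two-sided exact permutation test, p = 0.0303). The ranges overlapped, with WT libraries from 22.0 M and KO libraries up to 23.7 M. Values are therefore given as CPM, the reads of a gene per M reads of scaled library size. Taz was at 39.1 ± 2.54 CPM in WT (SD, n = 6) and 3.23 ± 0.685 CPM in KO (SD, n = 5), with a fitted log2 fold change of -3.60 ± 0.14 (SE; adjusted p = 4.079e-07, edgeR's quasi-likelihood test), and the genotypes did not overlap (exact permutation p = 0.004329, the smallest that 462 ways of splitting the clones can give). All 11 of the 11 GMP markers passed the filter on low counts, with summed levels of 13080 to 22400 CPM in WT and 12140 to 20170 CPM in KO. WT 2D stood apart, with 10 late neutrophil markers summing to 1531 CPM against 15.0 to 142 CPM in the other 10 clones. Summed B-lymphoid markers did not overlap between genotypes (34.3 to 87.2 CPM in WT, 6.38 to 30.5 CPM in KO), with Pax5 at 0 counts in every clone. Neuronal markers, examined because Camk2a and Camk2b are best known from neurons, summed to at most 1.04 CPM, and Snap25, Syt1, Rbfox3 and Gad1 were at 0. In bulk RNA, fewer cells of a type and less RNA per cell cannot be told apart.

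Camk2a, the CaMKII subunit most abundant in forebrain neurons, was the family member that separated the genotypes. Its level in the 6 WT clones ran from 23.2 CPM through a median of 29.2 CPM to 52.8 CPM. In the KO clones it was 11.2 CPM in 3H, 15.2 CPM in 3I, 12.1 CPM in 4J, 10.4 CPM in 4K and 8.63 CPM in 4L. The highest KO clone therefore lay below the lowest WT clone, with WT 1B the highest of all. The mean was 33.5 ± 10.8 CPM in WT (SD, n = 6) and 11.5 ± 2.44 CPM in KO (SD, n = 5), so that KO held 34.5% of the WT level, a log2 fold change of -1.53 ± 0.22 (SE). This difference was known when the gene was chosen, so it is a description, and the call below supports nothing. The fitted log2 fold change stayed between -1.65 and -1.36 when any 1 of the 11 clones was left out. Summed B-lymphoid markers were lower in the same clones, and their part in the Camk2a difference was not tested; within genotypes, the correlation of Camk2a with them across the 11 clones was weak (Pearson r = 0.340, Spearman rho = 0.327, permutation p = 0.2723 and 0.3256, adjusted p of r = 0.7287 over 63 relations of members with marker lists, r = 0.306 without the 2 clones farthest from the median).

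Of the 9 members, Camk2a was the 1 called in the fit over all genes (adjusted p under 0.05), where 5.05% of all tested genes were called, 2.29% lower and 2.76% higher in KO. It was also the 1 member with every KO clone below every WT clone, which held for 3.02% of all tested genes. Since the members were proposed from this contrast, nothing is read from these counts and shares. The median log2 fold change of the 9 members was -0.23, with 4 above 0 and 5 below, beside a median of -0.01 over all tested genes. Without the KO clones numbered 4, which leaves 2 KO clones, no member was called.

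**Figure D1:**
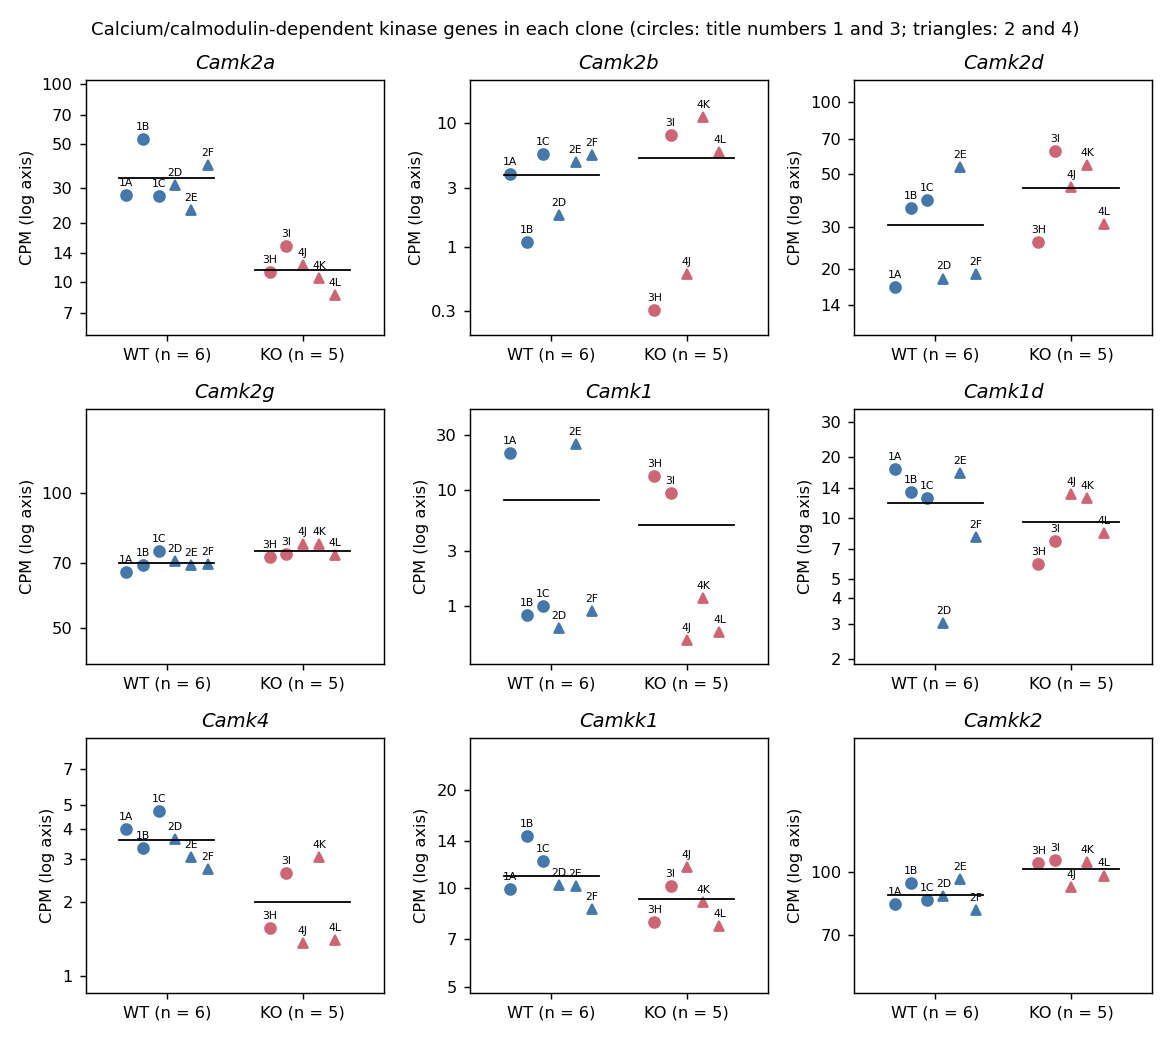
Level of each of the 9 kinase genes in each clone, in CPM on a log axis, with WT clones (n = 6) in blue on the left and KO clones (n = 5) in red on the right; the line is the group mean and the symbol shape gives the number in the clone's title. Camk2a is the panel in which the 2 genotypes do not overlap, and in the Camk1 panel 4 clones (WT 1A, WT 2E, KO 3H and KO 3I) sit above 9 CPM while the other 7 lie below 1.2 CPM.

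**Figure D2:**
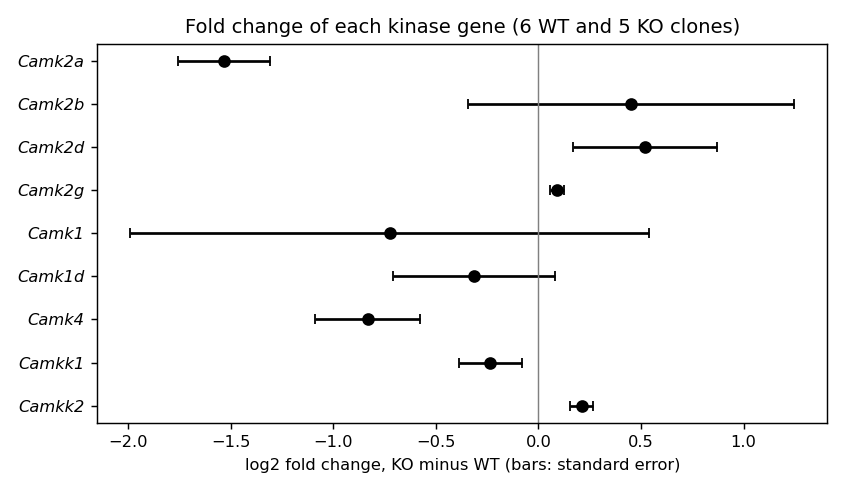
Log2 fold change of each kinase gene, KO minus WT, with the standard error of the fit as bars (6 WT and 5 KO clones). Camk2a lies farthest from 0 at -1.53, while Camk1 and Camk2b have the widest bars, at 1.26 and 0.80.

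Camk2b, the second CaMKII subunit known chiefly from neurons, was low and uneven. WT clones ran from 1.09 CPM through a median of 4.41 CPM to 5.68 CPM. KO clones were at 0.305 CPM in 3H, 8.11 CPM in 3I, 0.595 CPM in 4J, 11.3 CPM in 4K and 5.82 CPM in 4L. The KO group thus held both the lowest and the highest clones, 37.2-fold apart, on 6 to 241 reads, and each title number of KO had a clone at either end. The log2 fold change was 0.45 ± 0.80 (SE), and it turned to -0.33 with limma-voom and to -0.04 without KO 4K.

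Camk2d, a broadly expressed subunit best studied in heart, ranged from 16.8 CPM through a median of 27.5 CPM to 53.5 CPM in WT. Its KO values were 25.9 CPM in 3H, 62.2 CPM in 3I, 44.1 CPM in 4J, 54.6 CPM in 4K and 30.7 CPM in 4L. The genotypes overlapped, with WT 2E (53.5 CPM) within the KO range and just below KO 4K, and the log2 fold change was 0.52 ± 0.35 (SE).

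Camk2g, the other broadly expressed subunit, was the steadiest member. It stood between 66.6 and 74.2 CPM in WT, with a median of 69.3 CPM, and at 71.9 CPM in KO 3H, 73.1 CPM in 3I, 77.0 CPM in both 4J and 4K, and 72.9 CPM in 4L. The highest clone was only 1.16 times the lowest. Its biological coefficient of variation, edgeR's estimate of the spread between clones of a genotype, was 0.0681, at the 7.36th percentile of all tested genes, whose median was 0.136. The log2 fold change was 0.09 ± 0.04 (SE).

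Divided by the merged exon length, so that genes can be compared, the 4 CaMKII genes summed to 17.2 ± 1.47 CPM per kb in WT (SD, n = 6) and 15.7 ± 1.46 CPM per kb in KO (SD, n = 5). Camk2g made up the largest share in every clone, 63.9 ± 4.92% in WT and 74.6 ± 5.81% in KO. The Camk2a share was 25.8 ± 6.38% in WT, with clones from 18.5 to 36.1%, and 9.85 ± 1.72% in KO, with clones from 7.95 to 11.9%. Camk2d held 7.80 ± 3.73% in WT and 12.1 ± 3.28% in KO, and Camk2b 2.48 ± 1.25% and 3.50 ± 3.08%. The 4 shares of a clone make up the whole, so a lower Camk2a share goes with higher shares of the rest. The Camk2a difference was known when the genes were chosen. Camk2g itself was at 10.9 CPM per kb in WT and 11.6 CPM per kb in KO on average. These shares also depend on the length used for each gene. With the longest coding transcript instead, a choice added after the data were seen, the Camk2a share was 21.0 ± 5.75% in WT and 7.37 ± 1.28% in KO. The Camk2d share was then 16.7 ± 7.01% and 24.3 ± 5.62%, and the sum 32.0 ± 3.30 and 31.6 ± 4.27 CPM per kb. By that length the Camk2g means lay closer together, at 59.3 ± 5.61% in WT and 64.4 ± 7.72% in KO. The Camk2g ranges overlapped, with clones from 51.7 to 65.7% in WT and from 54.7 to 73.4% in KO.

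**Figure D3:**
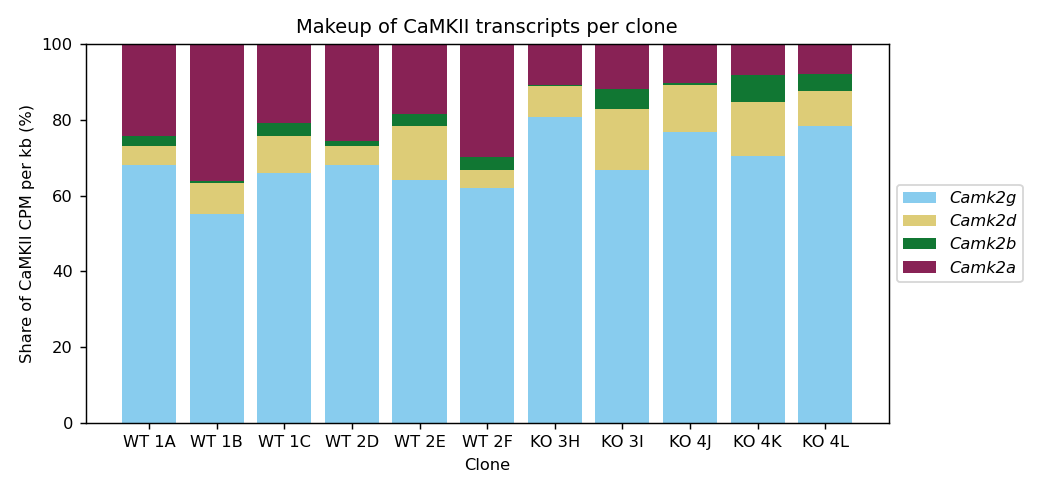
Makeup of the CaMKII transcripts in each clone, as the share (%) of the summed CPM per kb of merged exons taken by Camk2g, Camk2d, Camk2b and Camk2a. The Camk2a share at the top of each bar lies between 18.5 and 36.1% in the WT clones and between 7.95 and 11.9% in the KO clones.

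Camk2d moved with another measure that its choice did not use. After each genotype's mean was subtracted, its log2 level correlated across the 11 clones with the summed level of 8 mast cell and basophil markers (Pearson r = 0.863, Spearman rho = 0.909, permutation p = 0.00061 and 0.00033, adjusted p of r = 0.0384). This was the 1 of 63 relations between the members and 7 marker lists that passed the adjustment. It was r = 0.855 without the 2 clones farthest from the median and r = 0.832 within the 6 WT clones, and no value is given within the 5 KO clones, since correlations were computed over at least 6. The marker sum ran from 1180 CPM in WT 2D to 4247 CPM in WT 2E, and from 2218 CPM in KO 3H to 5067 CPM in KO 4K. None of the 8 markers was at 0 in all clones, and Fcer1a, part of the IgE receptor, was below 0.5 CPM in every clone. Camk2d ran the opposite way to the summed GMP markers (r = -0.811, rho = -0.745, permutation p = 0.00236 and 0.01263, adjusted p of r = 0.07434, r = -0.735 without the 2 farthest clones), which did not pass. Its relations with late neutrophil (r = -0.637), erythroid and megakaryocyte (r = 0.596) and T and natural killer markers (r = 0.568) did not pass either. The marker sums shared extremes: WT 2D had the lowest mast cell and erythroid sums (1180 and 74.5 CPM) and the highest GMP sum (22400 CPM). Whether the relation was particular to mast cell markers was not tested. Which cells of a culture carried the Camk2d transcripts was not tested.

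**Figure D4:**
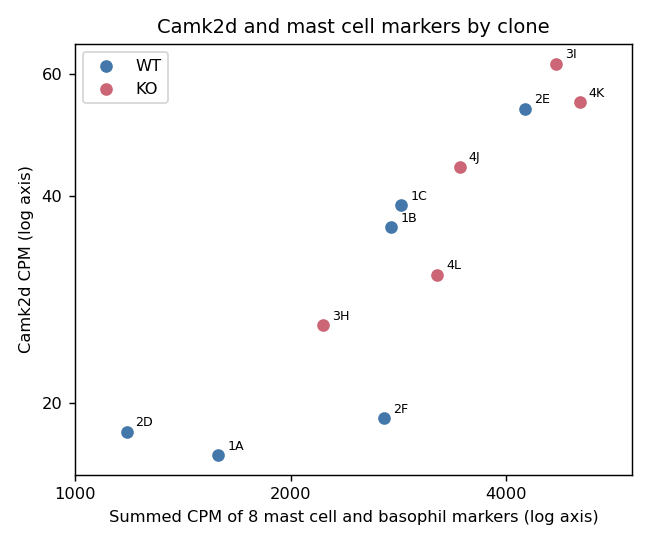
Camk2d level against the summed level of 8 mast cell and basophil markers in each clone, both in CPM on log axes, WT clones in blue and KO clones in red. The clones with the lowest marker sums, WT 2D and WT 1A, have the lowest Camk2d levels, and KO 3I, KO 4K and WT 2E are at the upper end of both.

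Camk1, the founding CaMKI kinase, was close to an on-or-off gene across the clones. It stood at 20.7 CPM in WT 1A and 25.1 CPM in WT 2E, and between 0.648 and 1.00 CPM in the other 4 WT clones, so that the WT median was only 0.956 CPM. In KO it was 13.1 CPM in 3H and 9.43 CPM in 3I, but 0.510 CPM in 4J, 1.18 CPM in 4K and 0.602 CPM in 4L. Thus 2 WT and 2 KO clones were high, on 222 to 682 reads, and 4 WT and 3 KO clones were low, on 12 to 25 reads, and the lowest high clone exceeded the highest low clone 8.01-fold.

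The whole range of Camk1 was 49.2-fold, and its coefficient of variation of 1.29 lay at the 99.0th percentile of tested genes. The log2 fold change between genotypes was smaller than its error, -0.73 ± 1.26 (SE), turning to 0.04 without WT 2E and to 0.47 without the clones numbered 4, and reaching -3.42 without those numbered 3. The clones numbered 4 were lower than those numbered 3 by a log2 difference of -3.88 ± 1.80 (SE), which did not pass the test over all genes (edgeR's quasi-likelihood test, unadjusted p = 0.0607, adjusted p = 1). In WT each title number had 1 high clone.

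The genes around Camk1 varied far less. Its 6 nearest tested neighbours in gene order, Mtmr14, Brpf1, Ogg1, Tada3, Arpc4 and Ttll3, each varied by at most 1.33-fold over the 11 clones, and none was called between genotypes. Exons of Camk1 overlap those of Ogg1, a DNA glycosylase gene on the opposite strand, over 232 bp, which is 3.88% of the Camk1 exon length. The counting was not strand-specific, per the name of the deposited data, so reads in this overlap cannot be assigned by strand. Ogg1 itself stayed between 20.6 and 24.3 CPM in every clone.

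**Figure D5:**
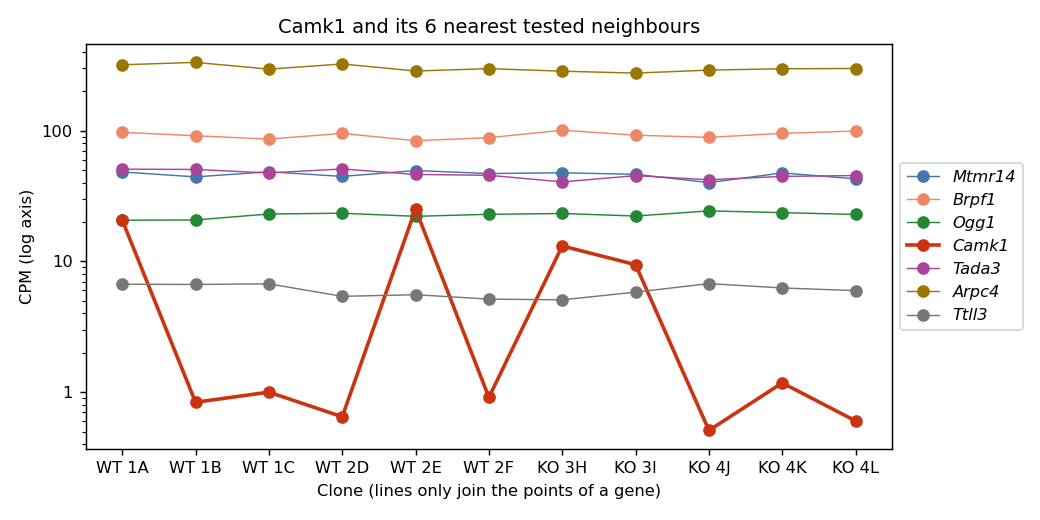
Level of Camk1 and of its 6 nearest tested neighbours in gene order in each of the 11 clones, in CPM on a log axis; lines only join the points of a gene. Camk1 moves between 0.510 and 25.1 CPM, while the highest and lowest clones of each neighbour are at most 1.33-fold apart.

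The promoters of the 2 most variable members, Camk1 and Camk2b, and of the abundant and steady Camkk2 are shown so that their base content can be compared, since both kinds of gene lie in the family. Each window runs from 250 bases before to 50 bases after the start of the gene (RefSeq, GRCm38.p6), 5′ to 3′ on the gene's strand. The half-site TGACG of the cAMP response element, the element bound by the CaMK substrate CREB, is in capitals where it occurs on the printed strand. The windows are chr6:113343873-113344172 for Camk1, chr11:6065699-6065998 for Camk2b and chr5:122779361-122779660 for Camkk2, all on the minus strand.
Camk1: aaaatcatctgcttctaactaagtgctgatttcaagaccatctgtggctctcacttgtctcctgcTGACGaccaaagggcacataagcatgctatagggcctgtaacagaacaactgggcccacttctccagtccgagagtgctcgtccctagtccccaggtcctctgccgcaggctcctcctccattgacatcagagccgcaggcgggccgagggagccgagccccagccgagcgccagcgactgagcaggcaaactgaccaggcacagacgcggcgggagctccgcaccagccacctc
Camk2b: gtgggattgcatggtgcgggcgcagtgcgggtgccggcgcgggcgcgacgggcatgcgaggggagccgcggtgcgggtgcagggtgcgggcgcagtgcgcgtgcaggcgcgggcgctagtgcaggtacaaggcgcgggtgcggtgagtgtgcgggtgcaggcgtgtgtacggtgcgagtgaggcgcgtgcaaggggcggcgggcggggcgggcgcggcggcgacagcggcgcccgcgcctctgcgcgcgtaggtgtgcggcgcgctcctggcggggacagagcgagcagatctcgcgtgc
Camkk2: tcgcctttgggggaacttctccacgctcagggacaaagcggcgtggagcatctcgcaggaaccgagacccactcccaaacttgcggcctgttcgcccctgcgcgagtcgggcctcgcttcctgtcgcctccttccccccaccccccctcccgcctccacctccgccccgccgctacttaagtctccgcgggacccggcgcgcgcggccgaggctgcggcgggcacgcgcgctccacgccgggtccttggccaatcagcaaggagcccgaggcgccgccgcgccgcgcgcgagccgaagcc
The Camk1 window has an observed-over-expected CpG ratio of 0.567 (62.2nd percentile of 32851 RefSeq promoter windows), the Camk2b window 1.28 (99.9th percentile) and the Camkk2 window 1.08 (97.5th percentile). The full element TGACGTCA, searched on both strands, is in 1.79% of all windows and in none of those of the 6 members matched. TGACG, which the full element contains and which was also searched on both strands, is in 20.8% of all windows and, among the members matched, in those of Camk1 and Camkk1. A match is a description of the letters only.

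By the naming rule, the genes whose log2 levels followed Camk1 most closely within genotypes were Epdr1 (r = 0.896), Arhgef12 (r = 0.887) and Prmt3 (r = 0.878), and those following Camk2b were Tmem189 (r = 0.950), Tnfaip8l2 (r = 0.896) and Gm13212 (r = 0.890), each over the 11 clones. Epdr1, which encodes an ependymin-related protein, was at 12.7 CPM in WT 1A and 6.55 CPM in WT 2E and at 2.34 CPM in KO 3H and 1.70 CPM in 3I, against 0.376 to 1.26 CPM in the other 7 clones. It was thus highest in the same 4 clones as Camk1. Prmt3, an arginine methyltransferase gene, varied only between 71.3 and 89.7 CPM. All points of these correlations share the same libraries, and the genes were picked as the highest of all tested, so no test is given.

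Camk1d, the CaMKI kinase known from granulocytes, was at 3.02 to 17.4 CPM in WT with a median of 13.0 CPM. In KO it was 5.89 CPM in 3H, 7.73 CPM in 3I, 13.1 CPM in 4J, 12.6 CPM in 4K and 8.43 CPM in 4L. The genotypes overlapped throughout, with a log2 fold change of -0.31 ± 0.39 (SE). The lowest clone was WT 2D, the clone with 1531 CPM of late neutrophil markers; the part of those cells in its Camk1d level was not tested, and without any 1 clone the fold change ran from -0.51 to -0.18. It turned to 0.04 without the clones numbered 1 and reached -0.80 without those numbered 4.

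Camk4, the nuclear kinase of the cascade, was sparse. WT clones ran from 2.74 CPM through a median of 3.49 CPM to 4.73 CPM. KO clones were at 1.57 CPM in 3H, 2.63 CPM in 3I, 1.36 CPM in 4J, 3.06 CPM in 4K and 1.41 CPM in 4L. KO 4K lay within the WT range and the other 4 KO clones below it, on 28 to 104 reads per clone, with a log2 fold change of -0.83 ± 0.26 (SE). Its exons overlap those of an antisense gene over 72 bp, 2.21% of its exon length. Among its 6 nearest tested neighbours, Stard4, a sterol transport gene, was called lower in KO (log2 fold change -0.61 ± 0.09, SE, adjusted p = 0.006436 by edgeR's quasi-likelihood test). No neighbour of any other member was called, where 5.05% of all tested genes were, so nothing is read from this call.

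The upstream kinases were more even than Camk1, Camk1d and Camk4. The coefficient of variation of Camkk1 was still 0.217, at the 67.7th percentile of tested genes. Camkk1 ranged from 8.63 CPM through a median of 10.2 CPM to 14.4 CPM in WT, and was 7.92 CPM in KO 3H, 10.2 CPM in 3I, 11.6 CPM in 4J, 9.08 CPM in 4K and 7.68 CPM in 4L. The ranges overlapped, with a log2 fold change of -0.23 ± 0.15 (SE).

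Camkk2 ran from 80.6 CPM through a median of 86.4 CPM to 95.9 CPM in WT. It was 105 CPM in KO 3H, 107 CPM in 3I, 91.8 CPM in 4J, 106 CPM in 4K and 97.9 CPM in 4L. Of the KO clones 4J alone fell within the WT range, and the log2 fold change was 0.21 ± 0.06 (SE), a level 1.16 times that of WT. Its coefficient of variation of 0.0842 was below the median of tested genes.

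Set in order by CPM per kb of merged exons, averaged over the 11 clones, the family was led by Camk2g (11.2) and Camkk2 (8.61), followed by Camk2a (3.15), Camkk1 (2.73), Camk2d (1.61), Camk1d (1.46), Camk1 (1.13), Camk4 (0.879) and Camk2b (0.489). Camk2g exceeded Camkk2, and Camkk2 exceeded Camk2a, in 11 of 11 clones with ranges that did not overlap. From Camk2a downward each gene's range overlapped that of the next. The place of Camk2a depended on the genotype: at 4.48 CPM per kb in WT it lay above Camkk1 (2.93) in all 6 clones, and at 1.55 CPM per kb in KO it lay below Camkk1 (2.49) in all 5 and had a lower mean than Camk2d (1.93). By the longest coding transcript the order changed. Camk2g (19.4 CPM per kb) and Camkk2 (19.3) had level means, so the lead of Camk2g over Camkk2 depended on the length used. Camk2d (6.58) and Camk1 (4.50) moved up to stand around Camk2a (4.73). The Camk1 mean rested on its 4 high clones, with an SD of 6.08 CPM per kb over the 11 clones. Per kb of merged exons, Camk1 exceeded Camk4 in only 4 of 11 clones.

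No pair of members was found to vary together. None of the 36 pairs had a correlation across the 11 clones, with genotype means subtracted, that reached an unadjusted permutation p of 0.05, and the lowest adjusted p was 0.8399. The contrasts between title numbers, which did not enter the choice of members, called no member either: edgeR called 0% of the 11900 tested genes between WT clones numbered 2 and 1 (372 at an unadjusted p under 0.05; 15 called by DESeq2, 0 by limma-voom) and 0% between KO clones numbered 4 and 3 (161, 6 and 0). No member had an unadjusted p under 0.05 in either.

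In the wider calcium pathway, 2 of the 92 tested genes of 6 related lists were called, both higher in KO, a share of 2.17% beside 5.05% of all tested genes. The lower share did not hold under every setting. DESeq2 called 11 of the 92 (12.0%) beside 10.6% of all genes it tested. The fit with a late neutrophil covariate called 8 (8.70%) beside 8.2%. With limma-voom the share stayed lower, at 3 of the 92 beside 599 of all 11900 tested genes. An unadjusted p under 0.05 was found for 17 of the 92 (18.5%) and for 20.3% of all tested genes. The median log2 fold change of the 92 genes was -0.03. The lists were chosen with earlier results of these data known. Their calls and adjusted p-values therefore describe these data and are not independent support. The calls were Stim2, which senses calcium in the endoplasmic reticulum and opens entry channels in the plasma membrane, and Nfatc2, a transcription factor that moves to the nucleus once calcineurin removes its phosphates.

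Stim2 belongs to the list of calcium entry, store and pump genes. Of its 35 tested genes, 13 had a log2 fold change above 0 and 22 below (list median -0.04). Stim2 was the 1 called higher in KO, and none was called lower. It ranged from 38.4 CPM through a median of 41.3 CPM to 45.1 CPM in WT, and was 48.7 CPM in KO 3H, 54.9 CPM in 3I, 52.4 CPM in 4J, 48.2 CPM in 4K and 54.4 CPM in 4L. Every KO clone lay above every WT clone. The ranges were also apart for Stim1 and P2rx7 of the same list, and neither was called. The share of all tested genes with every KO clone above every WT clone is not given, so nothing is read from this separation. By edgeR's quasi-likelihood test Stim2 rose with an adjusted p of 0.008256 and a log2 fold change of 0.32 ± 0.05 (SE), and the call held without any 1 clone, where the highest adjusted p was 0.02611. It was not called when all clones of any 1 title number were left out.

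Of the 10 tested calcineurin and NFAT genes, 7 had a log2 fold change above 0 and 3 below (list median 0.08). Nfatc2 was the 1 called higher in KO, and none was called lower. It was low in WT, from 0.109 CPM through a median of 0.986 CPM to 1.73 CPM, and stood at 2.85 CPM in KO 3H, 6.45 CPM in 3I, 3.36 CPM in 4J, 3.58 CPM in 4K and 4.67 CPM in 4L. The ranges did not overlap, and edgeR's quasi-likelihood test gave a log2 fold change of 2.07 ± 0.49 (SE) with an adjusted p of 0.03873. The call was lost without WT 1C, 2E or 2F, or without any 1 of the 5 KO clones, where the adjusted p reached 0.1012. The B-lymphoid markers and the library size also separated the genotypes or differed between them, and their part in the 2 calls was not tested.

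The other 4 lists held no called gene, and their counts at an unadjusted p under 0.05 stand beside 20.3% of all tested genes. Of the 7 tested genes for calmodulin and regulators of the kinases 1 had an unadjusted p under 0.05 (list median -0.06). Of 7 other calmodulin-binding kinases 3 had an unadjusted p under 0.05 (list median -0.16), and the most abundant, Eef2k, which slows translation elongation, had a log2 fold change of 0.33 ± 0.09 (SE) at an adjusted p of 0.0583 in edgeR. The list of substrates of the kinases and their partners had 7 of 21 tested genes at an unadjusted p under 0.05 (list median -0.01). In it Ep300, the acetyltransferase that works with CREB, had a log2 fold change of 0.12 ± 0.06 (SE, by edgeR, adjusted p = 0.2506). Of the 12 tested target genes of CREB 1 had an unadjusted p under 0.05 (list median -0.16). The immediate early gene Ier2 had a log2 fold change of 0.10 ± 0.10 (SE, by edgeR, adjusted p = 0.6525). DESeq2 called 1 of the other kinases, 4 of the substrate list, 1 CREB target and no calmodulin gene, where it called 10.6% of all genes it tested. No gene of these 4 lists was called by limma-voom.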

How the data were processed

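Polyadenylated RNA from about 5 M cells of each clone was sequenced with a directional library kit, per the labels' protocols. The deposited values are raw read counts per Ensembl gene, 1 table per clone; the name of the deposited data says that strand was not used in counting, and the submitters' processing notes name STAR, HTSeq, edgeR and mm9 without versions. Reads in no gene (6.07% of all reads in WT, 6.59% in KO, on average) and in several (2.85% and 2.79%) were left out. Symbols, lengths and gene order came from GENCODE M21 (GRCm38), in which 32860 of 37583 identifiers (87.4%, holding 99.6% of counts) matched; no coordinates of the count data were used.

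The counts were fitted with edgeR 4.0.16 (R 4.3.3; TMM scaling, filterByExpr by genotype, robust quasi-likelihood test, Benjamini-Hochberg adjustment over all 11900 genes tested, call at 0.05). Standard errors are the log2 fold change divided by the square root of F. Log2 levels carried a prior count of 2. Title numbers were compared in a fit with a mean for each number. Correlations used genotype-centred log2 levels and 100000 permutations. Alternatives were RLE scaling, no filter, at least 5 CPM in 5 clones, DESeq2 1.42.0, limma-voom (limma 3.58.1), each clone or title number left out, and a late neutrophil covariate. The code was tested on simulated data.

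The members and lists were chosen with earlier results of these data known. Relations with markers, pairs of members, neighbours and promoters were added after the data were seen. Genes were named by rule: all members, Taz, the called genes of each pathway list or its most abundant tested gene, and the 3 genes most like each of the 2 most variable members; neighbours and markers were named beside these. Some results under this rule are not reported here. Nothing says that clones came from separate animals, so p-values measure the spread between clones. Every pair of same-genotype libraries differed by more than counting noise, with a chi-square per gene of at least 15.2.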

Additional observations from a re-analysis of the deposited data

Results flagged for a closer look

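Nfatc2 in WT 1B was at 0.109 CPM, against 0.773 to 1.73 CPM in the other 5 WT clones. On the log2 scale (prior count of 2) the gap to the nearest clone was 0.665 of the range of the WT group, above the 95% limit of Dixon's test for 6 values; on the CPM scale it was 0.410, which is below that limit. It was the 1 of 32 groups of clones examined (16 genes in each genotype) to do so, and chance gives about 1 in 20.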

How the results depend on the processing

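The genes called between genotypes (601) numbered 307 with the mean of title-number means, 329 with no filter, 1259 with DESeq2, 976 with the late neutrophil covariate, and 45, 296, 92 and 32 without title numbers 1, 2, 3 and 4, which leave fewer clones. Without 1 clone they ran from 240 (without KO 3I) to 739 (without WT 2D), a move of over 1.5 times for each clone but WT 2D and 2E. DESeq2 called 15 genes between the WT and 6 between the KO title numbers; without 1 clone edgeR called 0 to 1 in each.

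The called pathway genes (2) numbered 1 with title-number means and with no filter, 11 with DESeq2, 8 with the covariate, 0 without each title number, and 1 to 4 without 1 clone (4 without WT 1A or 2D; 1 without WT 1C or 2F or KO 3I, 4J, 4K or 4L). By list, the calcineurin call (1) went to 0 with title-number means, no filter or without each title number, and the stricter filter left 0 because it removed Nfatc2, and to 0 to 1 without 1 clone. Calcium entry genes (1) numbered 4 with DESeq2, 2 with limma-voom, 2 with the covariate, 0 without each title number and 1 to 3 without 1 clone (2 without WT 1A, 3 without WT 2E). Genes of the substrate list (0) numbered 1 with RLE scaling, 1 with the stricter filter, 4 with DESeq2, 3 with the covariate and 0 to 2 without 1 clone. The other kinases (0) numbered 1 with DESeq2 and 1 with the covariate, the calmodulin list (0) 1 with the covariate and the CREB targets (0) 1 with DESeq2; without 1 clone these 3 stayed at 0. The causes of these moves were not tested.

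Beside Camk2a, DESeq2 called Camk4 and Camkk2, and edgeR without WT 2E called Camkk2; without title number 4 no member was called. The members were chosen from this contrast, so these calls support nothing. The Taz log2 fold change ran from -3.70 to -3.49 without 1 clone. No paired analysis was possible because the genotypes share no replicate numbers. The lowest clones of Camk2b, Camk1 and Camk4 held 6, 12 and 28 reads, so the relative counting error there is large.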

Other observations

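Several pathway genes lay just outside the threshold and are named here after their values were seen. Hdac7, a class IIa histone deacetylase exported from the nucleus once CaM kinases phosphorylate it, was at 59.6 CPM in WT and 46.8 CPM in KO on average (log2 fold change -0.35 ± 0.09, SE, edgeR adjusted p = 0.05006), and its relative Hdac5 at 73.6 and 56.5 CPM (-0.38 ± 0.12, SE, edgeR adjusted p = 0.09006). For the other relatives in the list the values were 0.22 ± 0.11 on the log2 scale for Hdac4 (SE; adjusted p = 0.3036 in edgeR) and -0.01 ± 0.37 for Hdac9 (SE; adjusted p = 0.9894 in edgeR). The ATP-gated calcium channel genes P2rx7 (0.93 ± 0.25, SE, edgeR adjusted p = 0.05944) and P2rx4 (0.72 ± 0.20, SE, edgeR adjusted p = 0.07442) had higher means in KO, and both lie next to Camkk2 in gene order. Another such gene, P2rx1, had a lower mean, at 60.8 CPM in WT and 48.3 CPM in KO (-0.33 ± 0.15, SE, edgeR adjusted p = 0.2504). Stim1, the paralog of Stim2, was at 85.1 CPM in WT and 76.4 CPM in KO (-0.16 ± 0.04, SE, edgeR adjusted p = 0.06364), the opposite sign to Stim2; the difference between the 2 genes was not tested.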
